A study of Mus musculus with 12 samples.

Results

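A set of 473 regions had a DNase-seq peak in every list of asynchronous G1E-ER4 cells and in no other list of the series. They were found by merging the peaks of the 12 replicate lists on the 19 autosomes wherever peaks shared at least 1 bp, which gave 263720 regions, and keeping those that met all 3 asynchronous G1E-ER4 lists and none of the other 9. That is 0.179% of all merged regions. The regions were chosen by the presence of a peak in these same 12 lists, so the pattern is given as a description, without a test. They are called ER4-asynchronous-only regions here, after the lists that hold them.

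G1E is a line of mouse erythroid precursors derived from embryonic stem cells of strain 129 in which GATA-1 was disrupted, and G1E-ER4 is a subline in which GATA-1 can be induced. The asynchronous G1E-ER4 cells were given 100 nM estradiol for 22 h, and mitotic G1E-ER4 cells the same estradiol and 200 ng/ml nocodazole for 7 h. Asynchronous G1E cells are GATA-1 null, with no treatment in their labels, and mitotic G1E cells are GATA-1 null and had 200 ng/ml nocodazole for 7 h. Each of these 4 groups had 3 libraries, and mitotic cells were sorted for phosphorylated histone H3. The labels give surface markers of Ter119+CD71+ for G1E-ER4 cells, and of Ter119-CD71- and Ter119-CD71+ for G1E cells. Estradiol, the subline and restored GATA-1 occur together in every G1E-ER4 library and cannot be told apart, and neither can mitosis, nocodazole and sorting. The labels do not say that replicates were separate cultures, so the spread between lists may be technical.

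DNase I cuts DNA where chromatin is open, above all at promoters, enhancers and other regulatory elements from which nucleosomes have been displaced. GATA-1 is the zinc-finger transcription factor that red cell precursors need to mature, and at many sites it takes the place of GATA-2, switching on erythroid genes such as the globins and switching off genes of the progenitor state. In mitosis chromosomes condense, transcription largely stops and many factors leave the DNA, while part of the open sites stay accessible. The regions described here were listed in asynchronous G1E-ER4 cells, and neither in mitotic G1E-ER4 cells nor in G1E cells of either stage. They thus lay at the crossing of the contrasts of line and of stage.

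Each list held 100000 peaks, the authors' highest by signal, so the number of peaks was the same in every library and a missing peak means that a site was either called below the limit of that list or not called at all. The signal is the authors' own value per peak and served only to rank peaks within a list, with rank 1 the highest. Read depth is unknown from these lists. Positions are on build mm9 and counted from 1. No annotation or genome of that build was used here, so the regions are named by position alone, no gene or sequence is given for them, and the cell type could not be checked at marker genes.

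Most sites of asynchronous G1E-ER4 cells were listed elsewhere too. Of the 40892 regions of all 3 asynchronous G1E-ER4 lists, 16145 (39.5%) were in all of the other 9 lists and 473 (1.16%) in none of them. The same pattern held for 258 regions of mitotic G1E-ER4 cells (0.0978% of merged regions), 3448 of asynchronous G1E cells (1.31%) and 116 of mitotic G1E cells (0.044%). Taken within the regions of all 3 lists of their own group, those are 0.77%, 8.61% and 0.334%. Regions of 1 group only were therefore most frequent in asynchronous G1E cells, and those of asynchronous G1E-ER4 cells came second.

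**Figure D1:**
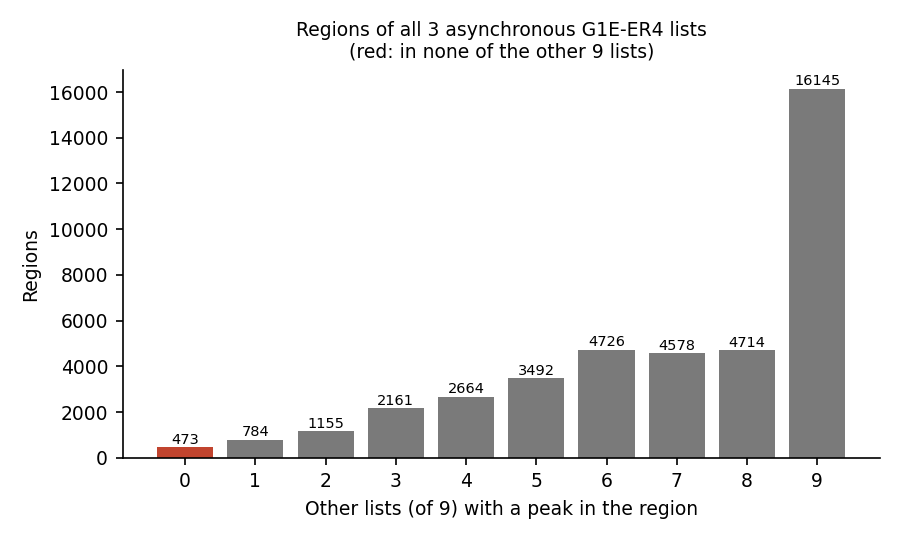
Number of regions (vertical axis) by how many of the other 9 lists also held a peak there (horizontal axis), for the 40892 regions of all 3 asynchronous G1E-ER4 lists. The red bar at 0 is the 473 regions of asynchronous G1E-ER4 cells only, the smallest of the 10 classes, and the bar at 9 is the 16145 regions of all 12 lists.

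The other groups removed different numbers of regions. Of the 40892 regions, 5195 (12.7%) were in no asynchronous G1E list, 4944 (12.1%) in no mitotic G1E-ER4 list and 4027 (9.85%) in no mitotic G1E list. Absence from both G1E groups held for 1266 regions, so 793 of them were in at least 1 mitotic G1E-ER4 list and 473 were not. Absence from all mitotic lists of both lines held for 2033 regions, and absence from asynchronous G1E and mitotic G1E-ER4 lists for 635.

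Just outside the rule stood 784 regions that were in all 3 asynchronous G1E-ER4 lists and in 1 other list. That other list was of asynchronous G1E cells for 345 of them (44.0%), of mitotic G1E-ER4 cells for 324 (41.3%) and of mitotic G1E cells for 115 (14.7%). The single list that took most was asynchronous G1E replicate 1, with 194 regions, where the extra peak had a median rank of 55965. Mitotic G1E replicate 3 took fewest, with 29 regions and a median rank of 73564. Their strength in the asynchronous G1E-ER4 lists was close to that of the ER4-asynchronous-only regions, with median mean ranks of 53734 for the 473 and 54725 for the 784. A further 2020 regions were in 2 of the 3 asynchronous G1E-ER4 lists and nowhere else, of which 615 lacked replicate 1, 835 lacked replicate 2 and 570 lacked replicate 3.

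The ER4-asynchronous-only regions were of middle to low strength. Their best peak had a median rank of 56698 in replicate 1, 49496 in replicate 2 and 44482 in replicate 3 of asynchronous G1E-ER4 cells. All regions of the 3 lists had a median mean rank of 26097, and regions of all 12 lists one of 8763. Regions of another group only were also weak in their own lists. Their median mean ranks were 44454.5 for asynchronous G1E, 61537 for mitotic G1E-ER4 and 68265 for mitotic G1E cells. The 53734 of the ER4-asynchronous-only regions lay among these values, so such strength is not called particular to them. In units of the lowest signal in the same list, the median signal was 1.22 in replicate 1, 1.23 in replicate 2 and 1.28 in replicate 3, and no region exceeded 2.76, 3.19 and 3.72 in these lists. All regions of the 3 lists stood further above the limit, with medians of 1.97, 1.74 and 1.78 in replicates 1, 2 and 3.

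**Figure D2:**
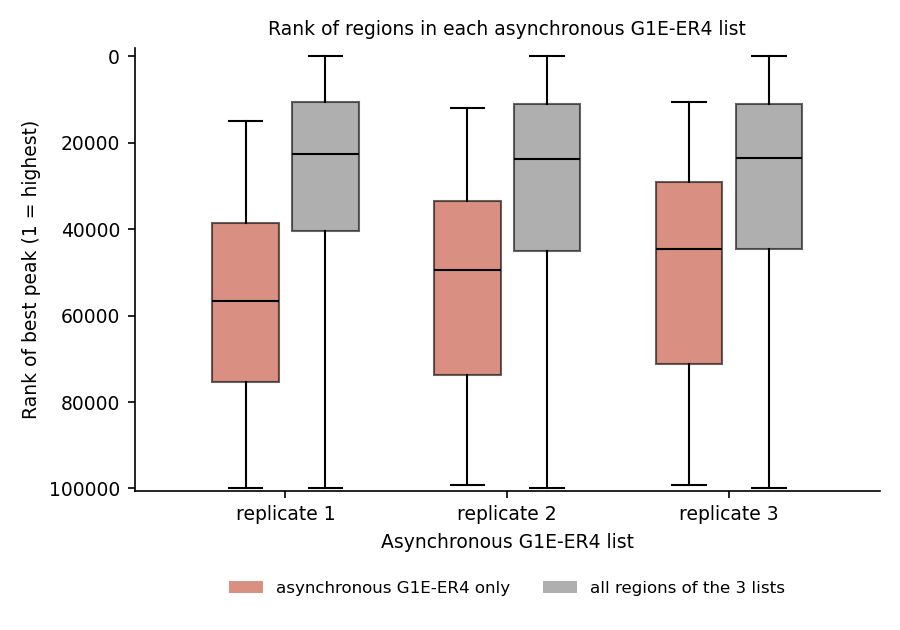
Rank of the best peak of each region (vertical axis, rank 1 at the top) in the 3 asynchronous G1E-ER4 lists, for the 473 ER4-asynchronous-only regions (red, left of each pair) and all 40892 regions of the 3 lists (grey). Boxes span the quartiles with the median, and whiskers the whole range. The red medians, from 44482 to 56698, lie at weaker ranks than the grey ones in each list.

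Their share grew as sites became weaker. The ranks come from lists that the rule used, and a weak site more easily falls below the limit of another list. The rule itself thus favours weak sites, so the rise is given as a description and not as a trait of these regions. Of the 16623 regions with a mean rank up to 20000 in the asynchronous G1E-ER4 lists, 7 (0.0421%) were ER4-asynchronous-only and 12755 (76.7%) were in all 12 lists. Between mean ranks 40001 and 50000 they were 91 of 4684 (1.94%), and regions of all 12 lists were 11.8%. Beyond 80000 they were 36 of 468 (7.69%), against 3.21% for regions of all 12 lists. Only 3 regions stood within rank 20000 in each list, and 105 (22.2%) within rank 50000 in each list. In contrast, 108 (22.8%) were beyond rank 50000 in every list and 104 (22.0%) were beyond rank 90000 in at least 1.

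The order of these regions differed between replicates. Spearman's rho of the ranks over the 473 regions was 0.27 between replicates 1 and 2, 0.38 between 1 and 3 and 0.50 between 2 and 3, while over all 40892 regions it was 0.82, 0.81 and 0.89. These are descriptions across regions, which share their libraries, and the 473 regions span a narrower range of strength. Replicate 3 gave the best rank to 209 of the regions, replicate 2 to 151 and replicate 1 to 113. Replicate 1, whose peaks were widest in general with a list median of 1192 bp against 619 bp and 604 bp in replicates 2 and 3, gave the worst rank to 215.

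The regions were narrower than the other sites of these cells, though not than merged regions in general. Their merged width had a median of 804 bp, with quartiles of 586 and 1209 bp and a range from 355 to 4004 bp, and 305 of the 473 (64.5%) were narrower than 1000 bp. All regions of the 3 asynchronous G1E-ER4 lists had a median of 2418 bp and regions of all 12 lists one of 3342 bp. All merged regions and the regions of asynchronous G1E cells only both had one of 630 bp. Regions of mitotic G1E-ER4 cells only had a median of 855 bp, and those of mitotic G1E cells only one of 1012.5 bp. A wide region can meet more lists, so the rule itself favours narrow ones. In the ER4-asynchronous-only regions the median peak was 703 bp wide in replicate 1, 448 bp in replicate 2 and 489 bp in replicate 3, below the median of every peak of the same list. Nearly all, 448 of 473, had 1 peak in each of the 3 lists.

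In most of the regions the 3 lists placed the point of highest signal, the summit, within 100 bp. The largest distance between the 3 summits had a median of 76 bp, and it was at most 100 bp in 273 of the 473 regions (57.7%). For all regions of the 3 lists the median was 52 bp, with 58.0% at most 100 bp apart, and for regions of all 12 lists it was 30 bp. Summit positions did not enter the rule, but it asks for merged peaks of all 3 lists and favours narrow regions. That limits how far apart summits can lie, and all regions of the 3 lists were wider, with a median of 2418 bp.

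The best-ranked region, chr1:190796766-190797651, had ranks of 15892, 12008 and 10567 in replicates 1, 2 and 3 of asynchronous G1E-ER4 cells. Its summits lay within 10 bp of each other, and its signal was 2.63, 3.19 and 3.72 times the lowest signal of these lists. A peak of another list came as near as 130 bp to its edge. It was followed by chr8:35183158-35184180, with ranks of 15132, 14973 and 11927 and summits within 34 bp, where the nearest peak of another list was 1302 bp away. The third, chr10:80349852-80350559, had ranks of 15066, 19158 and 16223 in replicates 1, 2 and 3. Those were the 3 regions within rank 20000 in every list, but the third also had a peak in the authors' pooled mitotic G1E-ER4 list.

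Further down, the lists lay close together at some regions and apart at others. Among the close ones was chr17:25334213-25334834, with ranks of 21780, 19321 and 20784 in replicates 1, 2 and 3. The region chr11:113576317-113576987 had ranks of 15904, 14113 and 21551 in replicates 1, 2 and 3. For chr8:73086642-73087276 these were 22038, 16795 and 14483, and for chr11:72933650-72935028 20272, 20274 and 14356. Replicate 1 was the weakest list at chr11:79035975-79036604, with 28632 against 15110 and 16597 in replicates 2 and 3, whereas replicate 3 was weakest at chr11:60735689-60736362, with 29175 against 17002 and 17829 in replicates 1 and 2. No list was high or low throughout, although replicate 3 gave the best rank at 14 of the 20 best regions.

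The 20 best-ranked regions had mean ranks from 12822 to 22348 and lay on 10 chromosomes. Their single ranks ran from 10567 to 31196, their widths from 581 to 1600 bp, with a median of 733 bp, and their summits agreed within 100 bp in 19 of 20 cases. The nearest peak of any of the other 9 lists was between 74 and 8906 bp away, and within 1 kb for 5 of them. Only 2 of the 20 appeared in a pooled list of another group: the chromosome 10 region above and chr9:44700611-44701263, which the pooled asynchronous G1E list held.

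**Figure D3:**
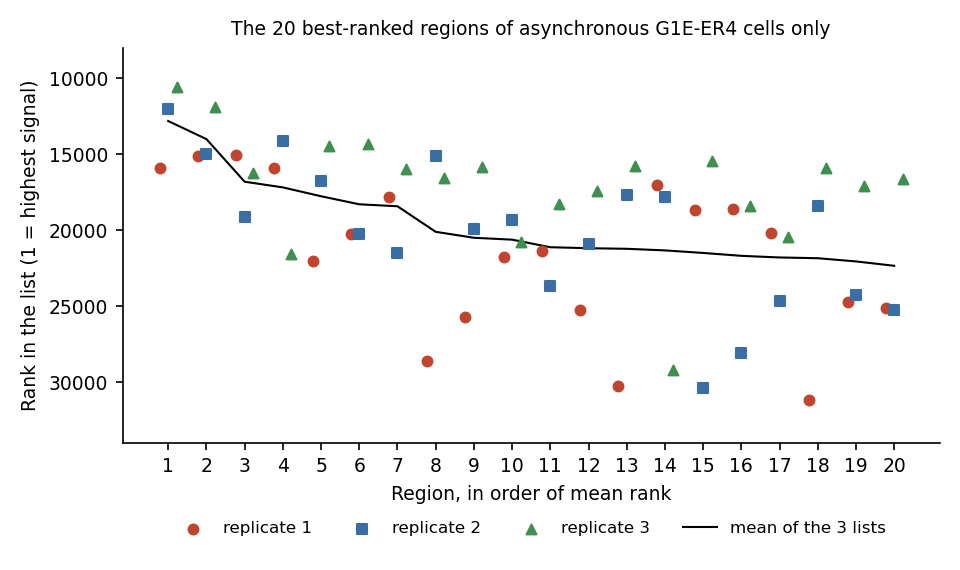
Ranks of the 20 best-ranked ER4-asynchronous-only regions (horizontal axis, in order of mean rank) in replicates 1, 2 and 3 of asynchronous G1E-ER4 cells, with rank 1 at the top of the vertical axis. Points are single lists and the line is their mean, which runs from 12822 to 22348, while single ranks run from 10567 to 31196.

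The widest regions were of another kind. The largest, chr2:172631033-172635036, was 4004 bp wide with ranks of 58156, 43029 and 37562 in replicates 1, 2 and 3, and the next, chr2:179588612-179592455, was 3844 bp wide with ranks of 34583, 94755 and 64222. In the 5 widest regions the summits of the 3 lists lay 985 to 2963 bp apart, so the lists shared the region and not a common summit. Of the 5, 4 lay on distal chromosome 2 and the other was chr13:114405782-114409142.

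Chromosome 2 held 90 of the 473 regions, or 19.03% (exact 95% binomial interval 15.6% to 22.9%, which covers counting error only and takes regions as independent). It held 11.1% of the regions of all 3 asynchronous G1E-ER4 lists and 7.32% of all merged regions. Most of these 90 lay beyond 150 Mb, where 68 ER4-asynchronous-only regions stood, or 14.4%, against 6.30% of the regions of the 3 lists. The same stretch held 0.551% of the regions of asynchronous G1E cells only. Of the 784 regions with 1 other list, 20.2% lay on chromosome 2. Every G1E-ER4 list, mitotic ones included, was dense there, with 5.11% to 6.97% of its autosomal peaks, against 1.86% to 3.33% in the 6 G1E lists. In this stretch the regions had a median width of 1278 bp and a median mean rank of 64685, against 770 bp and 51465 on the other autosomes. Without the stretch 405 regions remained, 1.06% of the 38314 regions of all 3 lists there.

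**Figure D4:**
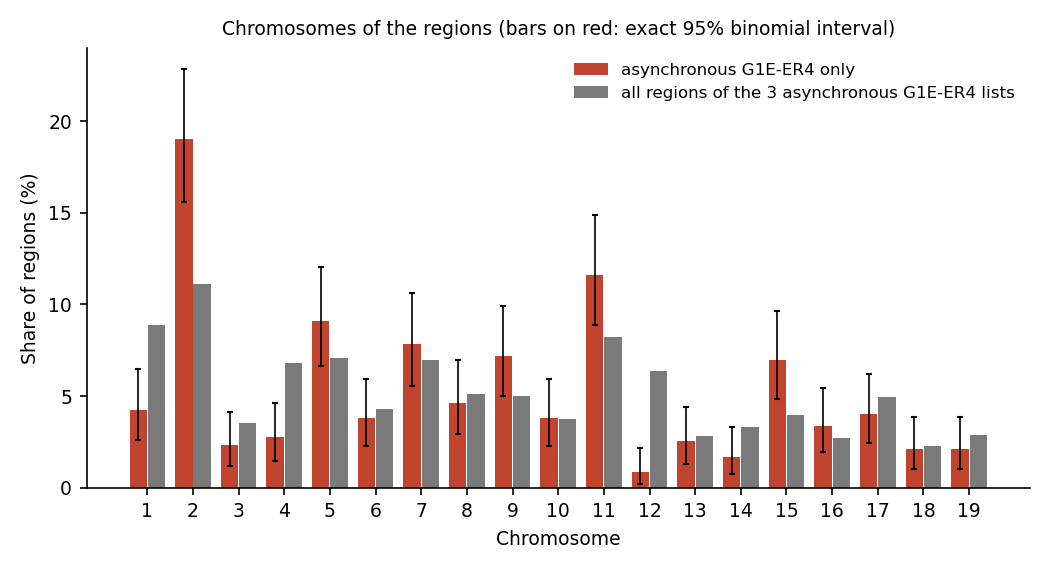
Share of regions on each autosome (horizontal axis) for the 473 ER4-asynchronous-only regions (red, with exact 95% binomial intervals) and for all 40892 regions of the 3 asynchronous G1E-ER4 lists (grey). Chromosome 2 held 19.03% of the first and 11.1% of the second, and chromosome 12 held 0.846% and 6.39%.

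Other chromosomes departed from the lists as a whole too. Chromosome 11 held 55 regions (11.6%, against 8.24% of the regions of all 3 lists) and chromosome 15 held 33 (6.98%, against 3.96%). Chromosome 12 had 4 (0.846%, against 6.39%), chromosome 1 had 20 (4.23%, against 8.86%) and chromosome 4 had 13 (2.75%, against 6.79%). Put as a rate, 2.04 of 100 regions of the 3 lists were ER4-asynchronous-only on chromosome 15 and 0.153 of 100 on chromosome 12. No test was made over chromosomes. Of all merged regions, 12.5%, 8.26% and 7.71% lay on chromosomes 1, 12 and 4, and 6.17% and 3.40% on chromosomes 11 and 15. The lists as a whole were thus also uneven over chromosomes, and whether that bears on these rates was not tested. The 4 regions of chromosome 12 were chr12:17544781-17545509, chr12:4686652-4687314, chr12:77720817-77722875 and chr12:81486238-81486929, with mean ranks of 25053, 35316, 49313 and 54440, and they were named after their values were seen.

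Most of the regions had no other of their kind within 100 kb. The next ER4-asynchronous-only region was a median of 333635 bp away, 141 (29.8%) had one within 100 kb and 23 within 10 kb. Counted in windows of 1 Mb, 206 of the 306 occupied windows held 1 region. At this scale 206 of the 473 regions were thus alone, and the others shared a window. The fullest was on chromosome 2 from 179000001 to 180000000, with 7 regions among 124 of all 3 lists. Next were windows of the same chromosome from 164000001, 165000001 and 168000001, with 6 regions each among 112, 146 and 147. The fullest elsewhere lay on chromosome 15 from 76000001 to 77000000, with 5 regions among 79. Those 5 spanned a range of strengths, from chr15:76376001-76376581 at a mean rank of 21230 to chr15:76751103-76752031 at 52710.

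They lay about as near to constantly listed sites as the other sites of these cells. The nearest region of all 12 lists was at a median of 11926 bp, and within 10 kb for 45.9% of them. For all regions of the 3 asynchronous G1E-ER4 lists these were 12601 bp and 45.1%. That set includes the 16145 regions of all 12 lists, each measured to the next such region. Regions found only in asynchronous G1E cells were farther away, at a median of 32772 bp and with 23.8% within 10 kb. For regions of mitotic G1E-ER4 cells only these were 123368 bp and 13.2%, and for mitotic G1E cells only 64372 bp and 18.1%. All merged regions had 36750.5 bp and 26.2%. Distance to a site of all 12 lists did not enter the rule.

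The surroundings in the lists that lacked them were then compared. The rule asks the same of those 9 lists. The share of regions with a listed peak within 1 kb of their edge was set between them. It was 23.7%, 20.1% and 14.8% in replicates 1, 2 and 3 of mitotic G1E-ER4 cells, against 13.7%, 16.5% and 13.1% in mitotic G1E cells and 17.1%, 13.3% and 15.0% in asynchronous G1E cells. The groups overlapped, with mitotic G1E-ER4 replicate 3 below 3 of the 6 G1E lists. Listed peaks covered 145.5, 88.9 and 64.7 Mb in replicates 1, 2 and 3 of mitotic G1E-ER4 cells. In the 6 G1E lists they covered 44.7 to 129.6 Mb. The regions were also chosen for peaks in lists of the G1E-ER4 line. A test over lists cannot tell a difference between groups from these 2 features, so no conclusion is drawn from it. The mean was 19.5% ± 4.47 in mitotic G1E-ER4 lists (SD, n = 3) and 14.8% ± 1.70 in G1E lists of both stages (SD, n = 6), a difference of 4.72 percentage points (exact permutation test, two-sided, p = 0.0476; 0.143 after Benjamini-Hochberg adjustment over 3 comparisons), which did not pass. Mitotic G1E-ER4 lists exceeded mitotic G1E lists alone by 5.07 points (exact permutation p = 0.2, adjusted 0.3), and between mitotic and asynchronous G1E lists it was -0.70 points (exact permutation p = 0.6, adjusted 0.6), where 3 lists against 3 cannot go below 0.1.

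The near-peak share was also computed outside distal chromosome 2. Without the 68 regions beyond 150 Mb, an alternative added after the data had been seen, the mean share was 15.4% ± 3.47 in mitotic G1E-ER4 lists (SD, n = 3) and 15.9% ± 1.99 in G1E lists (SD, n = 6). The difference then had the other sign, at -0.53 points. The stretch was chosen for its difference between the lines, so leaving it out had to lower this value, which is a description without a test. At the 68 regions themselves the share was 51.5%, 50.0% and 30.9% in replicates 1, 2 and 3 of mitotic G1E-ER4 cells, and between 2.94% and 11.8% in the 6 G1E lists. These values are given without a test for the same reason.

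**Figure D5:**
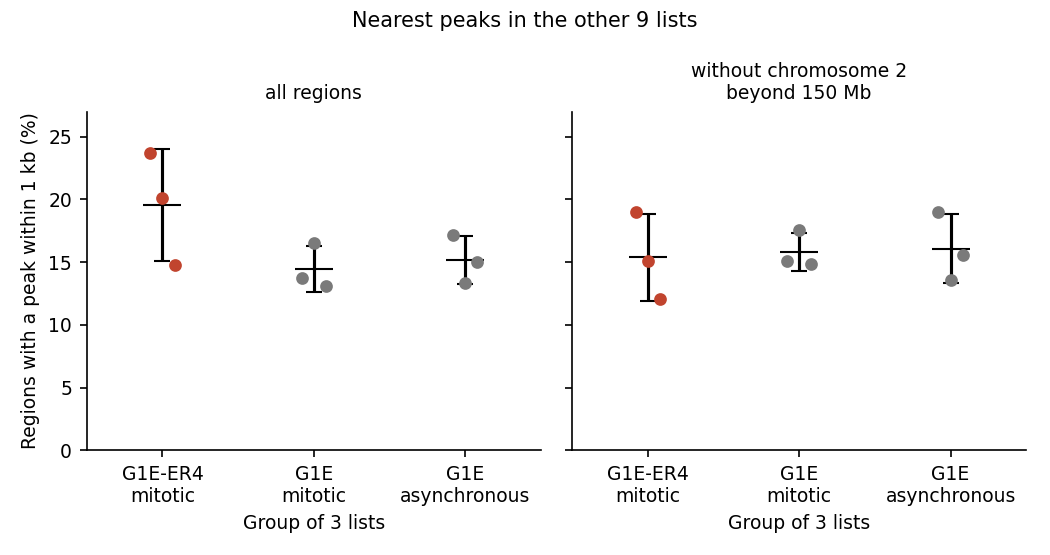
Share of the ER4-asynchronous-only regions with a peak within 1 kb of their edge (vertical axis, percent) in each of the 9 lists that lack them, for all 473 regions (left) and the 405 outside chromosome 2 beyond 150 Mb (right). Points are single lists, and bars give the mean and SD of 3 lists. The mitotic G1E-ER4 mean is 19.5% on the left and 15.4% on the right, and the groups overlap on both sides.

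Over the 9 lists, 257 of the 473 regions (54.3%) had a peak of at least 1 of the 9 lists within 1 kb. Peaks right at the edge were rare, since at most 1.06% of regions had one within 100 bp in any list. The other 216 regions had no listed peak of another group within 1 kb, and 199 of these were in no pooled list of another group either. Distances to peaks of the 9 lists were not computed for any other set of regions. These counts and shares are therefore not called particular to the ER4-asynchronous-only regions.

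The authors' pooled lists were made from the same libraries and give a second reading of the same sites, not an independent one. The pooled asynchronous G1E-ER4 list held 472 of the 473 regions, at a median rank of 37515. It lacked chr15:81921134-81922139, a weak region with a mean rank of 87748 that the pooled mitotic G1E-ER4 list did hold. That region was picked out after its values were seen. The pooled mitotic G1E-ER4 list held 36 of the regions (7.61%), the pooled asynchronous G1E list 21 (4.44%) and the pooled mitotic G1E list 20 (4.23%). Most of those peaks were weak, with median ranks of 83574, 85324 and 76881, and the summit fell inside the region for 27, 18 and 15 of them. In all, 72 regions (15.2%) had a peak in at least 1 pooled list of another group. The name asynchronous G1E-ER4 only therefore holds for the replicate lists and, over the pooled lists, for the other 401 (84.8%). Shares in the pooled lists were not computed for other sets of regions. They are therefore not called particular to the ER4-asynchronous-only regions.

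The lists also tell something of what was left out below their limits. Each peak's name carries a number that rises along the chromosome in every list, and the highest numbers sum to between 273095 in asynchronous G1E replicate 2 and 586668 in mitotic G1E replicate 1. Read as the running number of every peak called, a reading that no source states, the 100000 listed peaks would be 17.05% to 36.6% of those called. A number skipped between the listed peaks on either side of a region would then be a peak that was called there or nearby and not listed. In the 9 lists that lacked them, a median of 3 to 10 numbers were skipped around an ER4-asynchronous-only region, over gaps with a median length of 15907 to 21715 bp.

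Regions where no number was skipped had no called peak at all in that list on this reading. These were few in mitotic G1E-ER4 lists, with 2, 8 and 10 regions in replicates 1, 2 and 3, and in mitotic G1E lists, with 3, 4 and 14. Asynchronous G1E lists had 8, 79 and 41 in replicates 1, 2 and 3, and replicates 2 and 3 were also the lists with the fewest numbers in all. Over the 9 lists, 120 of the regions (25.4%) had no skipped number in at least 1 list, none had this in every list, and the most was 5 lists, at chr15:79917952-79918442. In all 3 asynchronous G1E lists it held for 3 regions, among them chr8:23167225-23167896, with ranks of 33611, 50097 and 38636 in replicates 1, 2 and 3 of asynchronous G1E-ER4 cells, and chr1:193814818-193815333, with 34120, 50410 and 81318. These were named after their values were seen. For the other regions the lists do not tell a site that was not called from one that was called below the limit. The share without a skipped number was not computed for other sets of regions. The counts are therefore not called particular to the ER4-asynchronous-only regions.

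Skipped numbers were denser around the regions than elsewhere. In mitotic G1E-ER4 lists the gaps around them had 3.18, 2.61 and 2.34 skipped numbers per 10 kb in replicates 1, 2 and 3, against 1.98, 1.45 and 1.56 in all gaps of these lists. The ratio of the 2 densities was 1.38 to 1.94 over the 9 lists and above 1 in each. No other set of regions was compared in this way, so the density is not called particular to the ER4-asynchronous-only regions.

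Which regions had the pattern depended on the limit of the lists. With the 50000 highest peaks of each list 413 regions had the pattern, a similar number, but 105 of the 473 were among them. Limiting the lists to 20000 peaks, an alternative added after the data had been seen, gave 257 regions, and these included 3 of the 473.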

How the data were processed

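DNase-seq libraries of mitotic and asynchronous G1E-ER4 and G1E cells were aligned to mm9 with Bowtie, per the submitters' processing notes. The labels' protocols describe light formaldehyde fixation and digestion at 3 DNase I concentrations per condition. No source used here names the peak caller or its filters. The deposited files are 12 replicate and 4 pooled peak lists that give each peak's position, summit offset and signal. The authors' signal is deposited without a stated normalization, and each list holds 100000 peaks in descending order of it. The limit fixes the number of peaks, so lists with weaker sites reach further down, and a site absent from a list may still have been called. Depth is unknown, so no counting limits are given for sites.

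Peaks on the 19 autosomes were merged where they shared at least 1 bp, and a region's rank in a list is that of its best peak. The regions, lists and tests were chosen with earlier results of these data known. Named regions are the 20 with the best mean rank, the 5 widest and the 5 windows of 1 Mb with most regions. The share of regions with a peak within 1 kb was tested over lists with two-sided exact permutation tests at a threshold of 0.05. Procedures were tested on simulated data. Replicate numbers are not stated to pair the lists. The intended gene, sequence and motif steps needed an mm9 reference and were not run. Python 3.11.15, numpy 2.4.6, pandas 2.3.3, scipy 1.17.1 and matplotlib 3.10.9 were used.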

Additional observations from a re-analysis of the deposited data

How the results depend on the processing

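The count of 473 regions moved by more than 1.5 times with 8 of 22 alternatives. It was 502 to 1330 on leaving out a library, with 1221, 1330 and 1060 without asynchronous G1E-ER4 replicates 1, 2 and 3, where fewer lists had to hold a region. Merging peaks within 500 bp gave 287 (with 14 of the 20 best-ranked), asking for at least 2 of the 3 lists 2493, and the authors' pooled lists, in which a site needs 1 list and not 3, 12678 (with 18 of the 20). Chosen after seeing the data, the 20000 highest peaks gave 257 regions with 3 of the 20 best-ranked, and the 50000 highest peaks of asynchronous G1E-ER4 lists against all peaks of the others gave 105. The median width of 804 bp was 565 to 896 bp on leaving out a library, lowest without asynchronous G1E-ER4 replicate 1, and 1025 bp with the 50000 highest peaks. The median mean rank of 53734 was 52563 to 66834, with 61048, 65919 and 66834 without asynchronous G1E-ER4 replicates 1, 2 and 3. The share on chromosome 2 was 15.6% to 23.5% on leaving out a library, highest without mitotic G1E-ER4 replicate 1, and 13.8% with the 50000 highest peaks; the cause was not tested. The difference of 4.72 points in near peaks was 2.64 to 7.08 on leaving out a library (exact permutation p = 0.0357 to 0.214), lowest without mitotic G1E-ER4 replicate 1. Its adjusted p was 0.107 to 0.45 over 13 alternatives. List coverage and the choice of regions from G1E-ER4 lists limit these tests as they do the main one. No conclusion is drawn from them. The difference turned to -0.53 without chromosome 2 beyond 150 Mb, a stretch chosen for its difference between the lines. With the replicate block, where labels are exchanged within a replicate number, it stayed at 4.72 points with an exact permutation p = 0.0741 (adjusted 0.222). The numbers are not stated to pair the lists, and deviations from the group means correlated at -0.05 to 0.08 over 18 same-numbered pairs. In 21 of 36 cases a list correlated best with its own number among the 3 of another group. Unrelated numbers would give this in about 1 of 3 cases. Whether equal numbers mark something shared was not tested.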
